A study of Mus musculus with 10 samples.

Results

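Expression of 8 genes of cortical interneurons that arise in the medial ganglionic eminence (MGE) was described in the E14.5 mouse dorsal telencephalon, the tissue that forms the cerebral cortex. The genes were Lhx6, Maf, Sst, Npy, Nxph1, Nxph2, Erbb4 and Cxcr4, out of 43629 gene identifiers counted by RNA sequencing, and all 8 were among the 17039 genes that passed a filter on low counts. They were chosen by name, with earlier results of the same comparison known, so their difference between genotypes was selected on these measured values and is a description, not a finding with a test. The 10 samples were 5 controls and 5 Dot1l-cKO, all on the C57BL/6 strain. Controls carried no Cre and 1 floxed Dot1l allele beside a wild-type one. Dot1l-cKO embryos carried 1 Cre allele and 2 floxed alleles of Dot1l, which encodes an enzyme that methylates histone H3, and the study's methods describe the controls as littermates. Only Dot1l-cKO carried the Cre allele, so effects of losing Dot1l and of the Cre allele itself cannot be told apart here. The Cre is active throughout the telencephalon, including the MGE, and the comparison therefore does not separate the site of birth of interneurons from the cortex they enter.

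Interneurons are the inhibitory neurons of the cortex, which release GABA. Many are born in the MGE, a ventral swelling of the embryonic telencephalon, under the transcription factor Nkx2-1, and migrate tangentially into the cortex. Lhx6, a LIM-homeodomain factor downstream of Nkx2-1, remains on in the migrating cells, and the neuropeptide Sst later marks a large class of them. The receptors Cxcr4 and Erbb4 respond to the chemokine Cxcl12 and to neuregulins, which guide the migration. Around E14.5 such cells have entered the dorsal telencephalon, where they are a minority among progenitors and excitatory neurons. Read counts from whole tissue do not distinguish fewer cells of a type from less RNA per cell.

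The promoters of 4 members are shown because they hold a sequence linked to this lineage or to the start of transcription. Windows of 300 bases, with 250 before and 50 after the RefSeq start site, were matched for 7 of the 8 members (GRCm38.p6). They are written 5′ to 3′ on the gene's strand, with the matched letters in capitals. The Sst window (chr16:23890795-23891094, minus strand) holds the cAMP response element, the Nxph2 window (chr2:23320996-23321295, plus strand) the core letters bound by NKX2 factors, and the windows of Cxcr4 (chr1:128592250-128592549, minus strand) and of 1 of the 3 Lhx6 start sites (chr2:36104011-36104310, minus strand) the letters of a TATA box. In Lhx6 the match is their reverse complement only.
Sst: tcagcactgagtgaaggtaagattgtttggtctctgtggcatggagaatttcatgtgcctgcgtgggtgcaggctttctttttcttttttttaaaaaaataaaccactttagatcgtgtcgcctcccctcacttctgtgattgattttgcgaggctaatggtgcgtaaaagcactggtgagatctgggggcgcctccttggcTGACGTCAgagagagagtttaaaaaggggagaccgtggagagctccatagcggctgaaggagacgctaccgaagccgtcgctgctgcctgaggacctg
Nxph2: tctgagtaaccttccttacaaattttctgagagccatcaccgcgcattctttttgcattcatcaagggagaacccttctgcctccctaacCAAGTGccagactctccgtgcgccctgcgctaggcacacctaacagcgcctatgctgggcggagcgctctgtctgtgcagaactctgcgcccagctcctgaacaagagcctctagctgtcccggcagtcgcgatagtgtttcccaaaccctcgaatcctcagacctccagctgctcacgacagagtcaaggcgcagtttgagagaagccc
Cxcr4: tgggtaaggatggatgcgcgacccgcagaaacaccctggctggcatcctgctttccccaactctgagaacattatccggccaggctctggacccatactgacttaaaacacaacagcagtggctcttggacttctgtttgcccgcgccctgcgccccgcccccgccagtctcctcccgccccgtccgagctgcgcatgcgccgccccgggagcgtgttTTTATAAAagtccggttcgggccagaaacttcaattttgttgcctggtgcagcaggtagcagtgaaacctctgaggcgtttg
Lhx6: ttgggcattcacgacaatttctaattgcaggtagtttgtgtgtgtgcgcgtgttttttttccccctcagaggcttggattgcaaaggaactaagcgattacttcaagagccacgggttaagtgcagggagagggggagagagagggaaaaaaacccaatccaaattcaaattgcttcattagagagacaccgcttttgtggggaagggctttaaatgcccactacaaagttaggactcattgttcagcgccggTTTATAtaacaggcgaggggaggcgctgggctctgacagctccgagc

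The letters TGACGTCA, the cAMP response element, began 48 bases before the start of Sst and were found in 1.79% of 32851 mouse promoter windows of this length, searched on both strands. The NKX2 core CAAGTG, with its reverse complement CACTTG, began 160 bases before the start of Nxph2 and was found in 13.6% of windows. The TATA box letters TATAAA and their reverse complement TTTATA overlapped each other, beginning 30 and 32 bases before the start of Cxcr4. Only TTTATA was found in Lhx6, beginning 3 bases after a start. Either was found in 13.6% of all windows. The homeodomain core TAATTA, found in 5.29% of windows, was in none of the 9 member windows. Among 9 windows, 1 held the NKX2 core, 1 the cAMP response element and 2 the TATA letters in either orientation. These are matches of letters, not measured binding, and the absence of a match says only that the letters were not in the window.

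Total counts were between 54202349 and 66556034 per sample. The number that opens the column name of the normalised tables, which the labels do not explain, was 57 for replicates 2 and 3 of both groups and not 57 for the other 6 samples. Mitochondrial rRNA took 0.0471% to 0.492% of counts in the 4 samples with number 57 and 5.79% to 10.9% in the other 6, so values are also given within each set. Dot1l itself was at 31.4, 41.5, 36.6, 40.6 and 36.3 counts per 1e+06 library counts (CPM) in control replicates 1 to 5 and at 42.3, 20.1, 39.6, 43.4 and 51.7 CPM in Dot1l-cKO. The difference, as a log2 fold change with its standard error (SE), was 0.08 (SE 0.20, edgeR adjusted p = 0.864). Gene-level counts add deleted and remaining exons, so this value neither shows nor excludes the deletion. Over all genes tested, 1.44% were called lower and 5.67% higher in Dot1l-cKO at an edgeR adjusted p-value under 0.05, and 2.17% had every Dot1l-cKO value under every control value. DESeq2 called 2011 genes in both directions together. Shares of all genes were not counted for DESeq2 by direction, for unadjusted p-values or for higher values without overlap. Counts of those kinds given below therefore have no share to be read against and are descriptions only.

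By edgeR, 6 of the 8 members were called lower in Dot1l-cKO, none higher and 2 were not called. DESeq2 called 7 lower and 0 higher, and at an unadjusted p-value under 0.05 edgeR gave 7 lower and 0 higher. Lhx6, Nxph1, Nxph2, Npy and Erbb4 had groups that did not overlap, which makes 5 of 8. Since the choice of genes used this comparison, nothing is read from these counts against the shares of all genes given above. The median log2 fold change of the 8 members was -2.27, and that of all genes tested was -0.0056. The Dot1l-cKO mean was between 12.5% and 25.2% of the control mean for the 6 called members, 51% for Maf and 109% for Cxcr4.

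**Figure D1:**
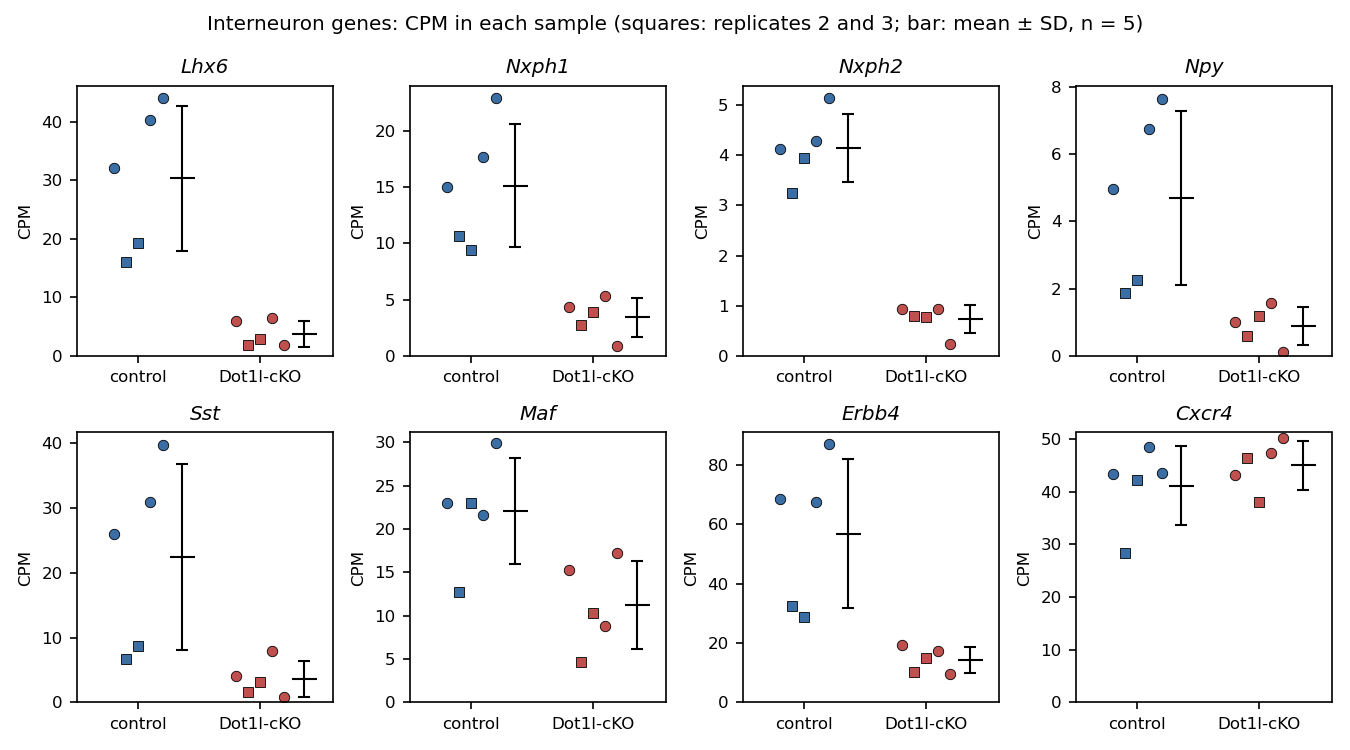
Expression of the 8 interneuron genes in each sample, in CPM on a linear axis that starts at 0, for control (blue) and Dot1l-cKO (red). Squares are replicates 2 and 3 and circles the other replicates, and the bar is the mean ± SD of 5 samples. The Lhx6 values lie between 16.1 and 44.0 CPM in controls and between 1.87 and 6.42 CPM in Dot1l-cKO, while the Cxcr4 values overlap.

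Among the transcription factors, Lhx6 specifies MGE-derived interneurons and is needed for their migration and subtype fate. Lhx6 (ENSMUSG00000026890, GRCm38 chr2:36081953-36105408) was at 32.1, 16.1, 19.3, 40.4 and 44.0 CPM in control replicates 1 to 5, a mean of 30.4 ± 12.4 (SD, n = 5). In Dot1l-cKO it was at 5.89, 1.87, 2.87, 6.42 and 1.92 CPM, a mean of 3.79 ± 2.20 (SD, n = 5). All Dot1l-cKO samples were under the lowest control, and replicates 2 and 3 were the lowest controls. The log2 fold change was -3.00 (SE 0.43), the fifth lowest of the 17039 genes tested. It was -2.88 within the samples of number 57 and -3.05 within the other 6.

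Maf encodes a bZIP factor of postmitotic MGE-derived interneurons, which microglia, endothelium and other cells also use. Maf (ENSMUSG00000055435, chr8:115682942-115707794) was at 22.9, 12.8, 23.0, 21.6 and 29.9 CPM in controls and at 15.2, 4.68, 10.3, 8.76 and 17.3 CPM in Dot1l-cKO. Each Dot1l-cKO sample was under the control of the same replicate number, but the groups overlapped. Maf had a log2 fold change of -0.97 (SE 0.32) and was not called by edgeR. With the replicate number as a block it was called lower, at -1.05 (edgeR, adjusted p = 0.00517), and so it was with the number from the column names as a block (edgeR, adjusted p = 0.0338) and by DESeq2 (adjusted p = 0.0187).

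Among the secreted peptides, Sst encodes somatostatin, an inhibitory neuropeptide. Sst (ENSMUSG00000004366, chr16:23889573-23890958) was at 25.9, 6.68, 8.67, 31.0 and 39.7 CPM in controls, a mean of 22.4 ± 14.3 (SD, n = 5). Dot1l-cKO values were 4.13, 1.61, 3.12, 7.98 and 0.902 CPM, a mean of 3.55 ± 2.78 (SD, n = 5). Dot1l-cKO replicate 4 was above control replicate 2, so the groups overlapped, although Sst was lower in 5 of 5 pairs with the same replicate number. The log2 fold change was -2.65 (SE 0.63), with -1.68 within number 57 and -2.90 within the other 6 samples. Controls varied 5.94-fold between the lowest and the highest.

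Npy encodes neuropeptide Y, which is co-expressed with Sst in part of the MGE lineage. Npy (ENSMUSG00000029819, chr6:49822710-49829507) was at 4.97, 1.86, 2.26, 6.74 and 7.65 CPM in controls and at 1.00, 0.590, 1.17, 1.57 and 0.129 CPM in Dot1l-cKO. The groups did not overlap, though Dot1l-cKO replicate 4 came close to control replicate 2. The Dot1l-cKO values rest on 8 to 104 counts. The log2 fold change was -2.39 (SE 0.57), and it was -1.21 within number 57 and -2.85 within the other 6 samples. The calls of Sst and Npy were both lost when any of control replicates 1, 4 or 5 or Dot1l-cKO replicates 1, 2 or 3 was left out, with edgeR adjusted p-values up to 0.0665 for Sst and 0.0656 for Npy.

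The neurexophilins are secreted glycoproteins that bind alpha-neurexins, presynaptic adhesion proteins. Nxph1 (ENSMUSG00000046178, chr6:8948431-9249032) was at 15.0, 10.6, 9.37, 17.6 and 22.9 CPM in controls and at 4.32, 2.77, 3.89, 5.29 and 0.838 CPM in Dot1l-cKO. Every Dot1l-cKO value was under every control value, and the log2 fold change was -2.14 (SE 0.41). Within number 57 it was -1.57, and within the other 6 samples -2.42.

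Nxph2 (ENSMUSG00000069132, chr2:23321246-23401973) had controls closer together than the other called members, at 4.12, 3.25, 3.95, 4.28 and 5.13 CPM, with a coefficient of variation of 16.4%. Its Dot1l-cKO values were 0.925, 0.798, 0.770, 0.935 and 0.242 CPM, from 15 to 62 counts. Replicate 5 stood below the other 4, which lay close together, and no sample overlapped the controls. Nxph2 had a log2 fold change of -2.50 (SE 0.30), with -2.18 within number 57 and -2.70 within the other 6 samples.

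Among the receptors, Erbb4 encodes a receptor tyrosine kinase for neuregulins. Erbb4 (ENSMUSG00000062209, chr1:68032186-69108059) spans 1075874 bp of the genome. It was at 68.4, 32.6, 28.7, 67.3 and 87.0 CPM in controls, a mean of 56.8 ± 25.2 (SD, n = 5), and at 19.2, 10.2, 15.1, 17.5 and 9.62 CPM in Dot1l-cKO, a mean of 14.3 ± 4.28 (SD, n = 5). The groups did not overlap, and control replicates 2 and 3 were again the lowest controls. The log2 fold change was -1.99 (SE 0.32), with -1.26 within number 57 and -2.28 within the other 6 samples.

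Cxcr4 encodes the receptor of Cxcl12 and is also expressed by other migrating cells, among them Cajal-Retzius neurons, and by blood and endothelial cells. Cxcr4 (ENSMUSG00000045382, chr1:128588199-128592293) was at 43.4, 28.3, 42.2, 48.4 and 43.6 CPM in controls and at 43.1, 46.4, 38.1, 47.4 and 50.1 CPM in Dot1l-cKO. The groups overlapped, and Dot1l-cKO was lower in 3 of 5 pairs. Its log2 fold change was 0.13 (SE 0.13), and Cxcr4 was not called under any of the alternatives tried.

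**Figure D2:**
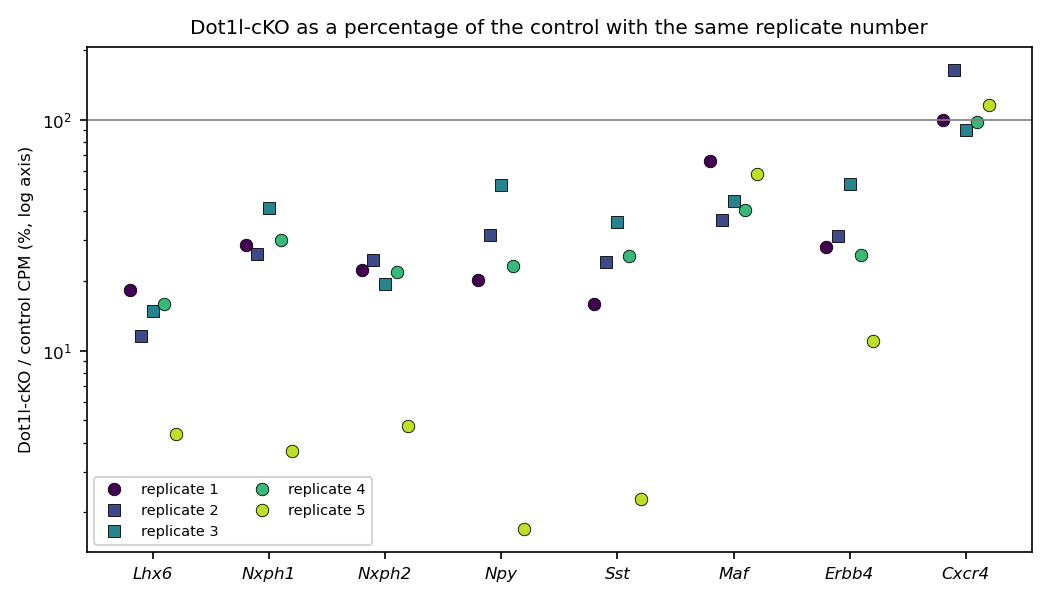
Dot1l-cKO as a percentage of the control with the same replicate number, for each of the 8 genes, on a log axis. Each point is 1 replicate number (squares for 2 and 3) and the line marks 100%. Replicate 5 gives the lowest ratio for Lhx6, Nxph1, Nxph2, Npy, Sst and Erbb4, between 1.68% and 11.1%, and ratios of 57.8% for Maf and 115% for Cxcr4.

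Ratios between samples with the same replicate number varied. Pairing by number was an assumption that the data did not establish, and replicate 5 was the weakest pair. Its samples correlated with r of 0.131 over the genes tested, after group means were removed. In replicate 5, Npy in Dot1l-cKO was at 1.68% of its control, Sst at 2.27% and Nxph1 at 3.66%, while in replicate 3 they were at 51.9%, 36% and 41.5%. Control replicate 5 was the highest control for all members but Cxcr4, and Dot1l-cKO replicate 5 was the lowest Dot1l-cKO sample for Nxph1, Nxph2, Npy, Sst and Erbb4. The fold changes of the called members kept their direction within number 57, but none of the 6 was called in that fit of 2 samples against 2, in which 1 gene of all was called. Within the other 6 samples, the same count of 6 was called lower as in the full fit.

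Levels of different genes were compared per exon length, as CPM per kilobase of exon (RPKM). In controls, Sst was highest at 31.0 RPKM, followed by Cxcr4 at 22.8, Npy at 8.30, Lhx6 at 6.32, Erbb4 at 4.60, Nxph1 at 3.18, Maf at 2.67 and Nxph2 at 1.61 RPKM. Neighbours in this order overlapped in their sample ranges, with the exception of Cxcr4 and Npy. In Dot1l-cKO the order began with Cxcr4 at 24.9 RPKM, then Sst at 4.92, Npy at 1.58, Maf at 1.36, Erbb4 at 1.16, Lhx6 at 0.790, Nxph1 at 0.720 and Nxph2 at 0.285 RPKM, and of the neighbours only Cxcr4 and Sst did not overlap. Lhx6 thus stood above Maf and Erbb4 in controls and below both in Dot1l-cKO by its mean.

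The 6 called members also varied together inside the groups. Deviations of log2 CPM from the group means, which the difference between groups does not enter, correlated over the 10 samples with Pearson's r between 0.57 and 0.97 for the 15 pairs of these genes, with a median of 0.88. Pairs with Maf had r between -0.27 and 0.40, and pairs with Cxcr4 between -0.02 and 0.40. These are descriptions over samples that share library, dissection and depth. The deviations of Lhx6 had r of 0.83 with Gad2, an enzyme of GABA synthesis, those of Nxph1 0.94, and those of Maf -0.02. With Isl1, a factor of striatal projection neurons, the 6 called members had r between 0.63 for Lhx6 and 0.87 for Nxph1, and Maf had -0.23. With Neurod6, a marker of the dorsal telencephalon, the same 6 had r between 0.17 for Nxph2 and 0.56 for Lhx6. Cxcr4 had 0.53 with Neurod6 and Maf 0.09. Striatal and dorsal cells are each represented here by 1 gene. Maf deviations had r of 0.68 with Csf1r, a microglia receptor, and 0.60 with Col1a2, a collagen of the meninges.

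Outside the members, the genes whose log2 CPM over the 10 samples followed the members' mean most closely, of 12603 genes compared, included Rpp25 (r = 0.97), Cux2 (0.96), Neb (0.96) and Elfn1 (0.95). Cux2, a homeobox gene of upper-layer neurons and of some interneurons, had a mean of 75.7 CPM in controls, against 31.5 CPM in Dot1l-cKO. With the group difference removed, the closest were Tfap2d (r = 0.95), Ttl (0.94), Cxcl14 (0.94), Slc13a3 (0.94) and Lmo3 (0.93), of which none was called. Their log2 fold changes lay between -0.01 and 0.37. No gene stood among the 5 closest in both rankings.

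**Figure D3:**
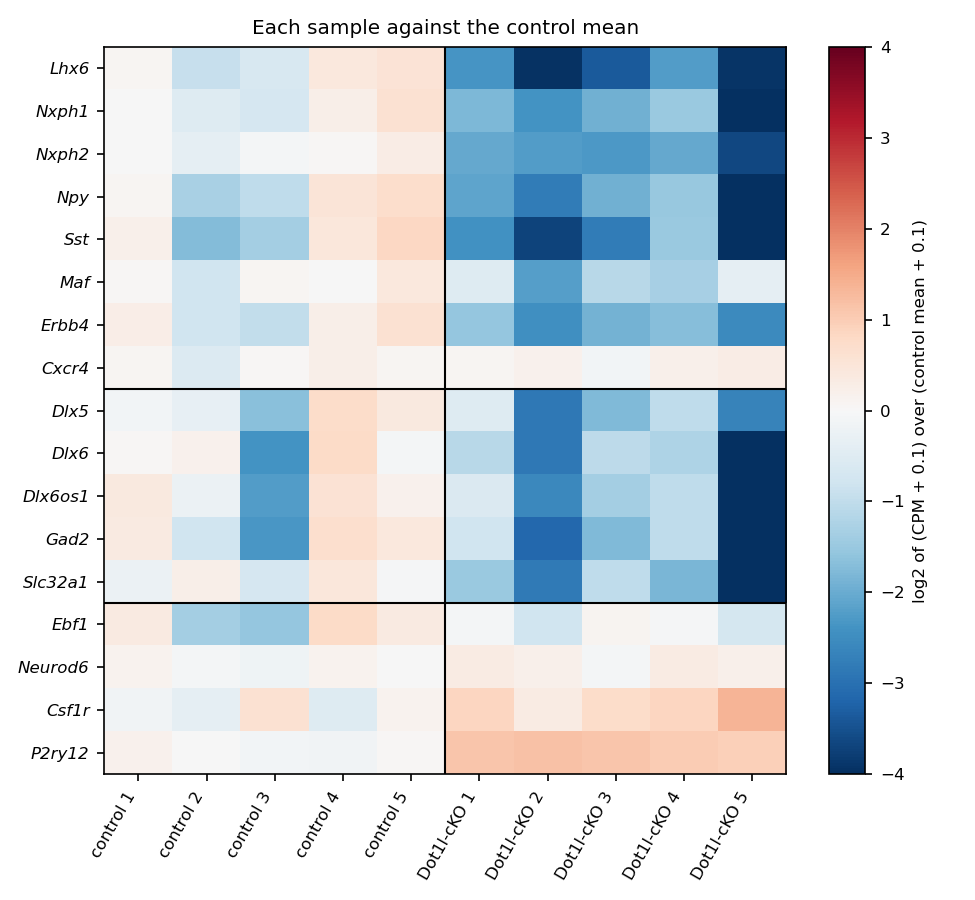
Each sample against the control mean, as log2 of CPM plus 0.1, for the 8 members (top block), genes of the Dlx and GABA list (middle) and markers of striatal neurons, dorsal telencephalon and microglia (bottom). Blue is below and red above the control mean, colours saturate at 4 log2 units either way, and the vertical line divides controls from Dot1l-cKO. Gad2 and Dlx6os1 are low in Dot1l-cKO replicates 2 and 5 as well as in control replicate 3, and P2ry12 is above the control mean in all 5 Dot1l-cKO samples.

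The factors that act with Lhx6 in the MGE lineage were examined in a list of 11 genes, of which 9 were tested. Of these, 4 fell, none rose and 5 were not called, with a median log2 fold change of -0.91. DESeq2 called 5 lower and 0 higher, and at an unadjusted p-value under 0.05 edgeR gave 6 lower and 0 higher. Sox6, an SRY-box factor that acts downstream of Lhx6 and is also made in cortical progenitors, was at 133 to 152 CPM in controls and at 62.6 to 82.1 CPM in Dot1l-cKO (log2 fold change -0.89, SE 0.08, edgeR adjusted p = 0.000204). Npas1, a bHLH factor of interneurons, fell from 1.22 to 0.102 CPM (-3.57, SE 0.57, edgeR adjusted p = 0.00348), a level of few counts in Dot1l-cKO. All 4 called genes had groups that did not overlap. Zeb2, an abundant zinc-finger factor that directs MGE cells to the cortex, had a mean of 459 CPM in controls, against 510 CPM in Dot1l-cKO and was not called (edgeR adjusted p = 0.597). Nkx2-1, which is switched off in cells bound for the cortex, was at 0.141 to 3.61 CPM in controls and at 0.0483 to 0.189 CPM in Dot1l-cKO and did not pass the filter.

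The genes shared by GABAergic neurons of all origins made a list of 9, all tested. None was called by edgeR, although all 9 log2 fold changes were negative, with a median of -1.71. At an unadjusted p-value under 0.05 edgeR gave 7, and DESeq2 called 1, Slc32a1, the vesicular GABA transporter. Dlx6os1, a noncoding RNA of the Dlx5 and Dlx6 locus, was at 92.9, 60.3, 15.1, 106 and 79.5 CPM in controls and at 47.9, 11.7, 27.4, 34.7 and 0.870 CPM in Dot1l-cKO. Control replicate 3 lay within the Dot1l-cKO range. Dlx6os1 had a log2 fold change of -1.53 (SE 0.75, edgeR adjusted p = 0.278). Gad2 was at 38.2 ± 22.5 CPM (SD, n = 5) in controls and 11.4 ± 9.02 CPM in Dot1l-cKO (-1.75, SE 0.73, edgeR adjusted p = 0.20), and the summed level of the list was 86.5 CPM in control replicate 3 against 226 to 428 CPM in the other controls. In the same control, Lhx6 was at 19.3 CPM and Erbb4 at 28.7 CPM.

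**Figure D4:**
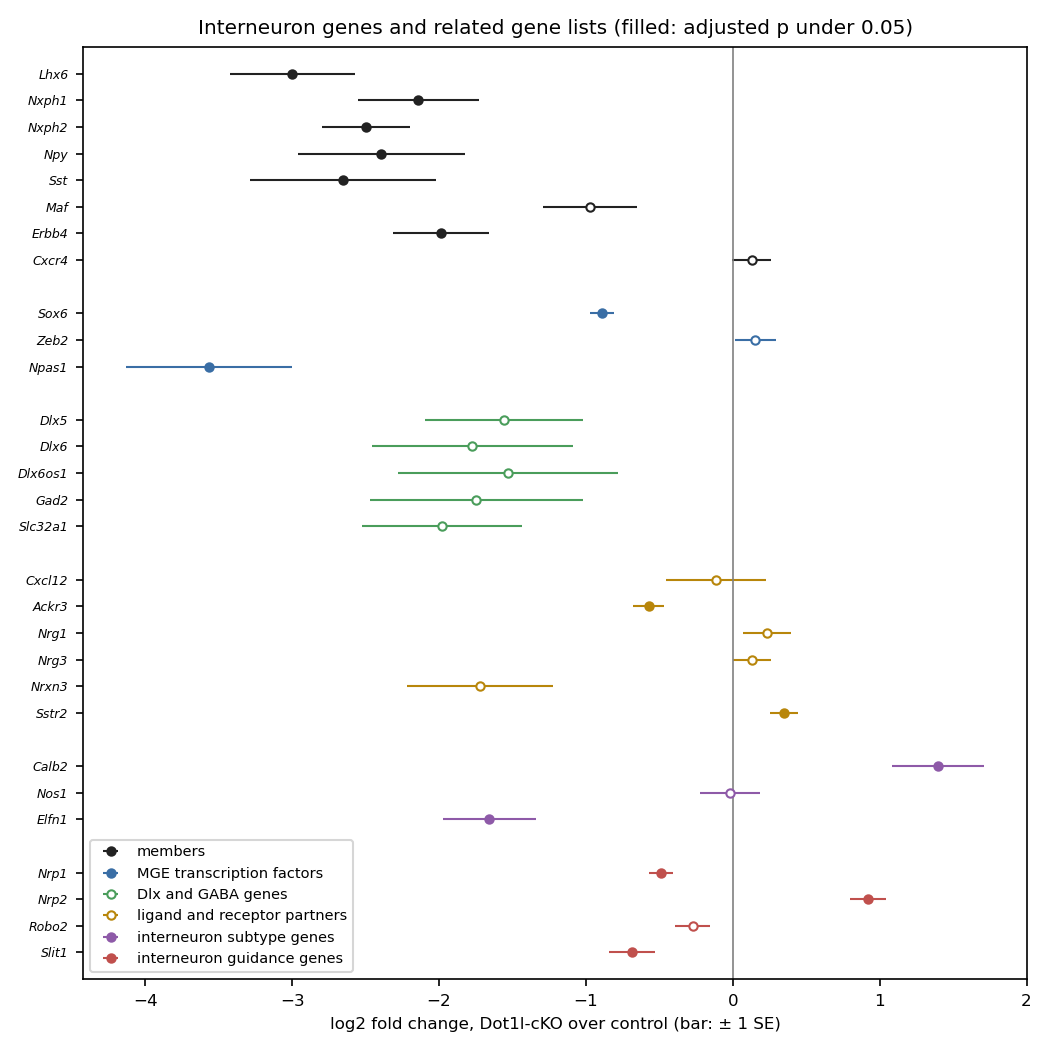
Log2 fold change of Dot1l-cKO over control for the 8 members and the genes of 5 related lists that the text names, with bars of ± 1 SE. Filled points have an edgeR adjusted p-value under 0.05, open points do not, and the vertical line marks no change. Lhx6 lies at -3.00 and Cxcr4 at 0.13 among the members, Slc32a1, Gad2 and Dlx6os1 lie at -1.98, -1.75 and -1.53 with open points, and Nrp2 at 0.92 and Calb2 at 1.40 are filled on the right.

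Ligands and receptors that partner with the members were listed as 21 genes, of which 18 were tested, 1 fell, 1 rose and 16 were not called. Their median log2 fold change was 0.07. Ackr3, the scavenger receptor of Cxcl12 that works beside Cxcr4 in migrating interneurons, was at 25.0, 28.5, 27.6, 27.3 and 25.4 CPM in controls and at 17.1, 19.8, 22.1, 15.8 and 15.2 CPM in Dot1l-cKO. The groups did not overlap, and Ackr3 fell by 0.57 on the log2 scale (SE 0.11, edgeR adjusted p = 0.00808). Cxcl12, the ligand, was at 26.6 ± 11.8 CPM in controls, against 24.6 ± 10.5 CPM in Dot1l-cKO (SD, n = 5 each, edgeR adjusted p = 0.892). Among the neuregulins that bind Erbb4, Nrg1 had a log2 fold change of 0.23 (SE 0.16, edgeR adjusted p = 0.473) and Nrg3 of 0.13 (SE 0.13, edgeR adjusted p = 0.633). Sstr2, a somatostatin receptor, was the gene that rose, from 108 to 137 CPM (0.35, SE 0.09, edgeR adjusted p = 0.0485), but its call was lost in each of the 10 fits that left out a sample. Nrxn3 was at -1.72 (SE 0.50, edgeR adjusted p = 0.0634) and was called lower by DESeq2 (-1.76, adjusted p = 0.0211).

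Genes of mature interneuron classes and of guidance were given by 2 more lists. Of 11 class genes, 9 were tested, 1 fell, 1 rose and 7 were not called, with a median log2 fold change of -0.64. DESeq2 called 2 lower and 1 higher, and at an unadjusted p-value under 0.05 edgeR gave 3 lower and 1 higher. Elfn1, a postsynaptic protein of Sst interneurons, fell from a mean of 4.79 to 1.51 CPM (-1.66, SE 0.32, edgeR adjusted p = 0.00902) with no overlap. Calb2, the calcium-binding protein calretinin, was at 10.5, 23.4, 11.9, 7.46 and 7.07 CPM in controls and at 34.7, 38.7, 38.6, 22.7 and 24.4 CPM in Dot1l-cKO. It rose by 1.40 on the log2 scale (SE 0.31, edgeR adjusted p = 0.0214), and its call was lost without control replicate 1 or 4 or Dot1l-cKO replicate 1 or 3, at adjusted p-values up to 0.0643. Calretinin is also a marker of Cajal-Retzius neurons, whose genes are given further on. Nos1, the neuronal nitric oxide synthase, had a log2 fold change of -0.02 (SE 0.21, edgeR adjusted p = 0.975).

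Of 9 guidance genes, 8 were tested, 2 fell, 1 rose and 5 were not called. Nrp1, a semaphorin receptor, fell from 200 to 143 CPM (-0.49, SE 0.08, edgeR adjusted p = 0.0045), while its paralogue Nrp2 rose from 135 to 255 CPM (0.92, SE 0.12, edgeR adjusted p = 0.00144). Neither gene overlapped between groups. Slit1, a repellent ligand of Robo receptors, fell from 71.3 to 44.2 CPM (-0.69, SE 0.16, edgeR adjusted p = 0.0231), a call lost without control replicate 2 or 4 or Dot1l-cKO replicate 1, at adjusted p-values up to 0.0615. Robo2 had a log2 fold change of -0.27 (SE 0.12, edgeR adjusted p = 0.223). The genes of these lists are not specific to interneurons, and their cell of origin in the tissue was not measured. Gad2, Slc32a1, Nkx2-1, Nrxn3, Cxcl12, Nrg1, Nrg3, Isl1, Prox1, Neurod2 and Slc17a7 were named after their values were seen, for their place in the pathway or among the markers.

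**Figure D5:**
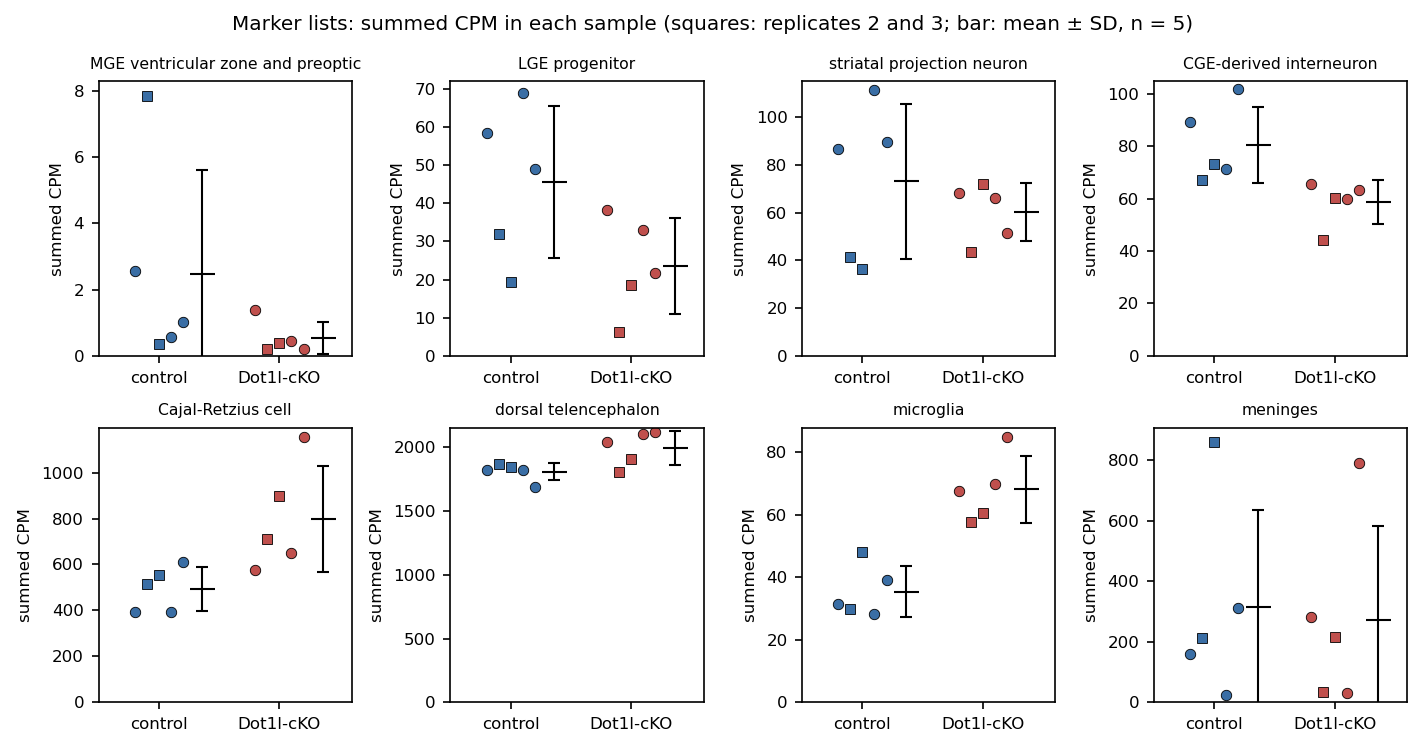
Summed CPM of 8 marker lists in each sample, on linear axes that start at 0, for control (blue) and Dot1l-cKO (red). Squares are replicates 2 and 3, and bars are the mean ± SD of 5 samples, cut at 0 where the SD exceeds the mean. The microglia sums do not overlap, at 28.4 to 48.0 CPM in controls and 57.6 to 84.9 CPM in Dot1l-cKO, and the MGE zone sum is highest in control replicate 2 at 7.86 CPM.

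Marker lists of other cell types show what else moved with the members. The dorsal telencephalon list of 9 genes, led by Neurod6, summed to 1691 to 1865 CPM in controls and 1803 to 2116 CPM in Dot1l-cKO. This sum shows dorsal tissue in every sample and cannot show how much ventral tissue was included. Of the genes in the dorsal list, Pax6, a progenitor factor, fell (-0.36, SE 0.09, edgeR adjusted p = 0.0294). Neurod2 and Slc17a7, genes of excitatory neurons, were called higher with the replicate block (0.34 and 0.53, edgeR adjusted p = 0.0206 and 0.0082) and not without it (adjusted p = 0.0566 and 0.0872). Markers of the MGE ventricular zone and preoptic area, led by Nkx2-1, summed to 0.359 to 7.86 CPM in controls and 0.208 to 1.38 CPM in Dot1l-cKO, with the highest value in control replicate 2. That sample had the lowest Sst, Lhx6 and Npy levels of the controls. Only 1 of these 5 genes passed the filter, Lhx8, and it was not called. With this sum as a covariate, an alternative chosen after seeing the data, 3 members were called lower, and with the dorsal sum as a covariate 2 were, against 6 without either. The log2 fold changes of the 6 members lay between -2.90 and -1.87 with the MGE zone covariate and between -3.21 and -1.75 with the dorsal one, against -3.00 to -1.99 without either.

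Markers of neighbouring ventral tissue varied between samples as well. Progenitors of the lateral ganglionic eminence, summed to 19.4 to 68.7 CPM in controls and 6.26 to 38.1 CPM in Dot1l-cKO, with 0 of 5 genes called by edgeR, 3 at an unadjusted p-value under 0.05 and 1 called by DESeq2. Striatal projection neurons, led by Ebf1, summed to 36.6 to 111 CPM and 43.5 to 71.9 CPM, with 0 of 10 called by edgeR, 0 at an unadjusted p-value under 0.05 and 0 called by DESeq2. Control replicates 2 and 3, which were low for Lhx6, Sst, Npy, Nxph1 and Erbb4, were also the lowest controls for the striatal sum, at 41.4 and 36.6 CPM. With the striatal sum as a covariate, 6 members were called lower. Markers of interneurons from the caudal ganglionic eminence, led by Nr2f2, summed to 67.2 to 102 CPM in controls and 44.2 to 65.6 CPM in Dot1l-cKO. The sums did not overlap, but 0 of the genes had groups without overlap. By edgeR 0 of 5 tested genes were called, with 2 at an unadjusted p-value under 0.05, and DESeq2 called 2. Log2 fold changes were negative for 4 of the 5, and that of Prox1 was 0.12 (edgeR adjusted p = 0.854). Nr2f2 was called lower with the replicate block (-0.63, edgeR adjusted p = 0.0300). It was not called with the column-name number as a block (-0.65, edgeR adjusted p = 0.0818) or without a block (-0.70, edgeR adjusted p = 0.116). Vip, a defining gene of this class, was at 0 in every sample.

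Microglia markers rose in 6 of 6 genes, led by Csf1r at 13.8 CPM in controls, against 25.3 CPM in Dot1l-cKO (log2 fold change 0.88, SE 0.23, edgeR adjusted p = 0.0414). With the replicate block 5 of the 6 remained called, and Aif1 had an adjusted p of 0.0730. Markers of Cajal-Retzius neurons, the early marginal-zone cells that also use Cxcr4 and Calb2, summed to 393 to 610 CPM in controls and 578 to 1156 CPM in Dot1l-cKO. Of these 5 genes, Ndnf (1.61, SE 0.19, edgeR adjusted p = 0.00066) and Lhx5 (0.82, SE 0.22, edgeR adjusted p = 0.0443) rose, and Reln, which led the list, was not called by edgeR without the replicate block (0.68, SE 0.20, adjusted p = 0.0704) and was called higher with it (0.66, adjusted p = 0.00412). Endothelium, meninges and erythroid lists, led by Kdr, Col3a1 and Hbb-bs, had 0 of 6, 0 of 7 and 0 of 7 genes called by edgeR, 0 at an unadjusted p-value under 0.05 and 0 called by DESeq2. The meninges sum ran from 24.9 to 861 CPM in controls and from 30.7 to 790 CPM in Dot1l-cKO. The part of these cell types in the levels of Maf, Cxcr4 and the other members was not tested.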

How the data were processed

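RNA was measured in 10 samples labelled as biological replicates, grouped by their titles. Per the labels and the study's methods, the authors made stranded rRNA-depleted libraries, trimmed paired-end reads with Trim Galore 0.2.8, mapped them to mm10 with TopHat2 2.0.9 and counted reverse-stranded reads per Ensembl gene with HTSeq 0.6.0. The deposited tables hold whole-number counts, and the authors' normalised signal, which is counts divided by a DESeq2 1.6.1 size factor. Symbols and coordinates came from GENCODE (GRCm38), with 42548 of 43629 identifiers matched, and promoter sequences from RefSeq (GRCm38.p6).

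Counts were tested with the edgeR 4.0.16 quasi-likelihood test in R 4.3.3 (filterByExpr, TMM, genotype only) with Benjamini-Hochberg adjustment over 17039 genes and a threshold of 0.05. The test was tried on simulated data first. SE is the fold change over the root of F. CPM used TMM library sizes, and correlations log2 CPM with a prior count of 2. Each library was counted as 1 replicate, since replicates differed by a chi-square per degree of freedom of at least 30.8. Same-numbered samples had r of 0.131 to 0.597 for 5 pairs after group means were removed. The mean of -0.072 for different numbers follows largely from that removal and is no separate support for pairing. Only 2 of 5 controls correlated best with their own number. Control replicate 3, for example, had r of 0.446 with Dot1l-cKO replicate 5 and 0.145 with Dot1l-cKO replicate 3. Pairs by replicate number, and the replicate block, are therefore an assumption that these values do not establish. Alternatives were DESeq2 1.42.0, limma 3.58.1 on log2 of the normalised counts plus 1, DESeq2 size factors in edgeR, other filters, blocks, covariates and samples left out. Counts were read without molecular identifiers, so precision from counts covers counting error only. The members and lists were chosen with earlier results of these data known. Named genes are the members, Dot1l, called list genes, the most abundant gene of each list and the 5 closest genes by each correlation. Some genes of this rule are not reported here.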

Additional observations from a re-analysis of the deposited data

Results flagged for a closer look

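Of 42 groups of 5 samples examined, 6 held a sample far from the others by Dixon's ratio of the gap to the range, on log2 CPM and with a critical value of 0.710. Chance alone gives about 1 in 20. Among the members, Nxph2 in Dot1l-cKO had a ratio of 0.852, since replicate 5 was at 0.242 CPM and the others at 0.770 to 0.935 CPM. Cxcr4 in controls had a ratio of 0.745, with replicate 2 at 28.3 CPM and the others at 42.2 to 48.4 CPM. In Dot1l-cKO, replicate 2 stood low for Dot1l, with a ratio of 0.717, and for Sox6, with a ratio of 0.747. Slit1 in controls had a ratio of 0.715 with replicate 1 low at 59.7 CPM, and Sstr2 in Dot1l-cKO one of 0.746 with replicate 4 high at 171.8 CPM.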

How the results depend on the processing

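The number of all genes called was 1212, and it was 2011 with DESeq2, 1 within number 57, 745 within the other samples, 559 with the dorsal covariate, 479 with the MGE zone covariate (chosen after seeing the data) and 750 to 1357 when 1 sample was left out. The members called lower, 6, were 0 within number 57, 2 with the dorsal covariate, 3 with the MGE zone covariate, 7 with DESeq2, 7 with the column-name number as a block and 4 to 6 with a sample left out, and no member was called higher in any fit. The genes of the 5 lists called lower, 8, became 13 with DESeq2, 0 within number 57, 3 and 5 with the dorsal and MGE zone covariates and 7 to 13 with a sample left out. Those called higher, 3, became 0 within number 57, 1 with the dorsal covariate and 1 to 3 with a sample left out. The log2 fold change of Dot1l turned to -0.37 within number 57, -0.0058 with limma and -0.46 with the dorsal covariate, and ranged from -0.046 to 0.25 with a sample left out, and that of Cxcr4 turned to -0.047 with the MGE zone covariate. With 2 samples against 2, few calls can be made, and for the other settings the cause was not tested. The 6 kept fold changes of -1.75 or lower with either covariate. The replicate block left all 6 members called and added Maf, for 7 of 8. A minimum of 10 counts in every sample removed Npy. For the called members, calls outside these fits were kept, apart from those of Sst and Npy with a sample left out.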

Other observations

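The other neurexophilins and the remaining receptors of the peptides that passed the filter were not called by edgeR. Npy5r and Sstr5 did not pass it and were not tested. Nxph3, a paralogue of Nxph1 expressed by deep-layer cortical neurons, was at 23.2 ± 6.23 CPM in controls, against 31.1 ± 8.61 CPM in Dot1l-cKO (SD, n = 5 each; log2 fold change 0.42, SE 0.21, edgeR adjusted p = 0.286). Nxph4 had a log2 fold change of 0.21 (SE 0.21, edgeR adjusted p = 0.627). Among somatostatin receptors, Sstr1 was at 2.61 to 3.55 CPM in controls and 2.34 to 2.58 CPM in Dot1l-cKO with no overlap, a log2 fold change of -0.35 (SE 0.12) that edgeR did not call (adjusted p = 0.126) and DESeq2 did (adjusted p = 0.0356). Nxph3, Nxph4 and Sstr1 were named after their values were seen.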
